A study of Mus musculus with 6 samples.

Results

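Mitochondrial ribosomal protein genes were taken as the genes of the deposited table whose symbol starts with Mrpl or Mrps followed by a digit, leaving out the 5 processed pseudogenes. The rule gave 78 of 54532 genes. Of these, 77 passed the filter of a mean of at least 0.5 FPKM over the 6 libraries, together with 12577 other genes. FPKM are fragments scaled to gene length and to a total for each library. RNA had been sequenced from mouse CD8 T cells, the cytotoxic T cell lineage, purified from spleen and lymph nodes and activated for 3 days in culture on beads that carry antibodies to CD3 and CD28. The groups were cells of Ptpmt1 knockout mice (KO, n = 3) and of wild-type mice (WT, n = 3), both activated in the same way. Ptpmt1 encodes a mitochondrial phosphatase that makes a precursor of cardiolipin, the signature lipid of the inner mitochondrial membrane. The labels used here give neither strain, age, the exons removed nor the cells in which they were removed, and do not state whether each library is a different animal; a p-value here thus compares the groups with the spread between libraries alone, which may be technical in part.

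Mitochondria keep a ribosome of their own, the mitoribosome, which translates only the few messages of the mitochondrial genome, all of them for subunits of the respiratory chain and of ATP synthase. Its ribosomal RNAs are transcribed inside the organelle, whereas all of its proteins are encoded in the nucleus, translated in the cytosol and imported. The large subunit (Mrpl genes) joins amino acids and holds the exit tunnel, which opens at the inner membrane. The small subunit (Mrps genes) binds the message and reads its codons. Some of the proteins descend from bacterial ribosomal proteins and others exist only in mitochondria. T cells enlarge their mitochondria and raise mitochondrial translation after activation, and cytotoxic T cells depend on it.

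Ptpmt1 itself had 1.0004, 1.58 and 1.504 FPKM in KO replicates 1 to 3, against 3.75, 3.84 and 4.13 FPKM in WT replicates 1 to 3. It was lower in every KO library (log2 fold change -1.26, SE 0.198, limma adjusted p = 0.0884). Reads rebuilt from the FPKM totalled 14932604 to 16819913 per library. One library stood apart: KO replicate 3 held 0 Xist reads and 1837 reads of the Y-linked gene Ddx3y, whereas the other 5 libraries held at least 3513 Xist reads and 0 Ddx3y reads. The deposited FPKM summed to 1.09, 1.40 and 0.824 times the mean total in KO replicates 1 to 3, and to 0.953, 0.894 and 0.839 times in WT replicates 1 to 3. Summed FPKM of 7 CD8 T cell markers was 946 to 1687 in KO and 1423 to 1815 in WT libraries. Of these, Cd8a, Cd3e and Cd2 were each lower in every KO library than in every WT library, and Cd8b1, Cd3d, Cd3g and Lck overlapped. Cd8a had 135, 109 and 145 FPKM in KO replicates 1 to 3, against 182, 196 and 219 FPKM in WT replicates 1 to 3. Markers of gamma-delta T cells summed to 18.2 to 115.0 FPKM in KO and 18.6 to 39.6 FPKM in WT libraries, and those of neutrophils and mast cells to 7.15 to 33.9 FPKM in KO and 3.73 to 12.5 FPKM in WT libraries, with Ly6g and Mcpt4 at 0 in all 6. Markers of CD4 T cells summed to 1.93 to 5.995 FPKM in KO and 1.52 to 3.22 FPKM in WT libraries. Like the gamma-delta list and the neutrophil and mast cell list, this sum was highest in KO replicate 3, where most of it was Zbtb7b (5.44 FPKM). Cd4 itself was lower in every KO library (0, 0.0567 and 0.137 FPKM) than in every WT library (0.439, 0.565 and 1.86 FPKM), and Foxp3 overlapped. KO replicate 3 also had the lowest CD8 sum, although Cd8a and Cd3e were highest there among the KO libraries. B cell markers summed to 13.4 to 15.1 FPKM in KO and 18.7 to 25.05 FPKM in WT libraries, lower in every KO library than in every WT library, with most of the sum from Cd79b and with 2 of the 5 genes tested. The part of these cell types in the results below was not tested. In bulk RNA, fewer cells of a type and less RNA per cell cannot be told apart.

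Mitochondrial ribosomal protein transcripts were higher in KO cells as a group, by a modest amount, and no single one passed the test. Of the 77 tested, 75 had a log2 fold change above 0, which is 97.4% of them, against 52.4% of all 12654 genes tested. Their median log2 fold change was 0.53, against 0.03 over all genes tested, and their range was -0.08 to 1.42. With limma and a Benjamini-Hochberg adjusted p under 0.05 over all genes, 0 members were called (0.0395% of all genes tested, or 5 genes), and the adjusted p of the members ran between 0.0970 and 0.978. At an unadjusted p under 0.05, 31 members were higher in KO (40.3%, against 11.5% of all genes tested) and 0 were lower (against 10.2%). All 3 KO values lay above all 3 WT values in 35 members (45.5%, against 14.5% of all genes tested), and below them in 0 (against 13.3%). An exact permutation test of 3 against 3 libraries cannot give a 2-sided p under 0.1.

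The members summed to 2771, 3534 and 1872 FPKM in KO replicates 1 to 3, against 1760, 1648 and 1852 FPKM in WT replicates 1 to 3. KO replicate 3 lay barely above the highest WT library, and KO replicates 1 and 2 lay well above it. The sum averaged 2726 ± 832 FPKM in KO and 1753 ± 102 FPKM in WT (SD, n = 3 each), a ratio of 1.55. As a share of all rebuilt reads, which does not depend on the deposited scaling, the members took 0.537%, 0.568% and 0.424% in KO and 0.362%, 0.348% and 0.402% in WT libraries. By this measure too every KO library stood above every WT library, and the gap between KO replicate 3 and WT replicate 3 was the smallest of the 9 pairs.

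Leaving out KO replicate 3 changed the calls. With KO replicates 1 and 2 alone, 36 members were called by limma, all of them higher in KO (46.8%, against 8.12% of all genes tested called higher and 5.58% called lower), the median log2 fold change was 0.69 and both KO values lay above all WT values in 64 members (83.1%, against 28.2% of all genes tested). The lowest adjusted p was then 0.0344. Of the 36 members, 18 also had KO replicate 3 above all WT libraries and 18 did not. With sample weights that down-weight variable libraries, 67 members were called, against 56.9% of all genes tested. Without KO replicate 2, the library with the highest values, the median was 0.37 and 0 members were called. At an unadjusted p under 0.05, 13 members were higher without KO replicate 1 (16.9%, against 6.76% of all genes tested), 14 without WT replicate 1 (18.2%, against 6.69%) and 9 without WT replicate 2 (11.7%, against 5.65%).

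**Figure D1:**
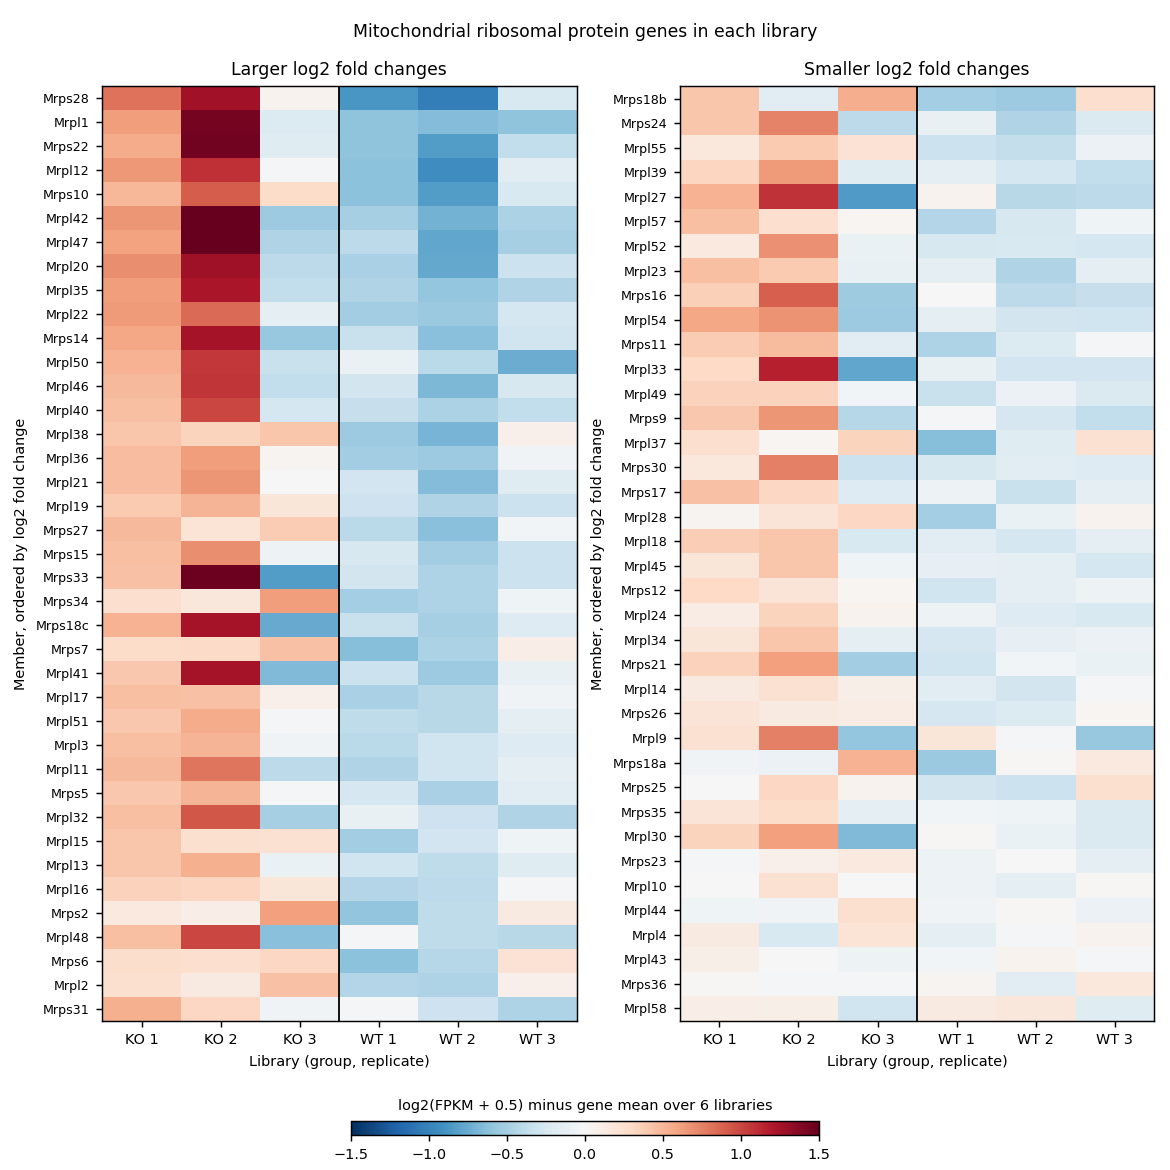
Colours show log2(FPKM + 0.5) of each of the 77 tested members in each library, less the mean of that gene over the 6 libraries, with members ordered by log2 fold change down the left panel and then the right. KO replicates 1 and 2 are red in most rows, WT libraries are mostly blue, and KO replicate 3 ranges from red to blue.

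The largest differences were in Mrps28, a small-subunit protein (mm10 chr3:8802146-8923918, minus strand). It had 78.0, 107 and 45.6 FPKM in KO replicates 1 to 3, against 23.9, 21.3 and 37.7 FPKM in WT replicates 1 to 3. All KO values were higher than all WT values, with KO replicate 3 and WT replicate 3 nearest to each other. KO exceeded WT by a log2 fold change of 1.42 (SE 0.355, limma adjusted p = 0.113), or of 1.75 without KO replicate 3 (adjusted p = 0.0344). Mrps10, the counterpart of a bacterial protein in the head of the small subunit (chr17:47368887-47381417, plus strand), had 6.96, 9.38 and 5.87 FPKM in KO and 2.93, 2.44 and 3.98 FPKM in WT libraries. Its groups did not overlap, and its adjusted p was the lowest among the members (log2 fold change 1.13, SE 0.238, limma adjusted p = 0.0970). Mrps22, found only in mitochondrial ribosomes and mutated in a human mitochondrial disease (chr9:98588730-98601660, minus strand), had 18.9, 35.4 and 11.1 FPKM in KO and 8.20, 6.87 and 9.75 FPKM in WT libraries. KO replicate 3 was close above the highest WT library (log2 fold change 1.21, SE 0.394, limma adjusted p = 0.157).

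In the large subunit, Mrpl1, the protein of the mobile stalk where spent tRNA leaves the ribosome (chr5:96209493-96266727, plus strand), had 18.4, 32.5 and 10.1 FPKM in KO and 7.52, 7.31 and 7.56 FPKM in WT libraries. The WT libraries were nearly identical and the KO libraries spread widely, so the SD was 11.3 FPKM in KO and 0.135 FPKM in WT (log2 fold change 1.24, SE 0.383, limma adjusted p = 0.149). Mrpl12 forms the other stalk, which recruits translation factors (chr11:120484613-120489065, plus strand). It had 104, 142 and 65.6 FPKM in KO and 43.1, 34.6 and 58.8 FPKM in WT libraries, again without overlap (log2 fold change 1.15, SE 0.328, limma adjusted p = 0.130). Of its exonic bases, 13.1% are shared with the opposite-strand gene Gm16755. Mrpl42, found only in mitochondrial ribosomes (chr10:95480805-95501940, minus strand), had 37.4, 69.9 and 15.8 FPKM in KO and 16.4, 14.1 and 16.7 FPKM in WT libraries. KO replicate 3 lay inside the WT range (log2 fold change 1.12, SE 0.484, limma adjusted p = 0.235), and the estimate moved to 1.68 when KO replicate 3 was left out and to 0.62 when KO replicate 2 was. Mrpl47 and Mrpl20 completed the 8 members with a log2 fold change above 1.

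**Figure D2:**
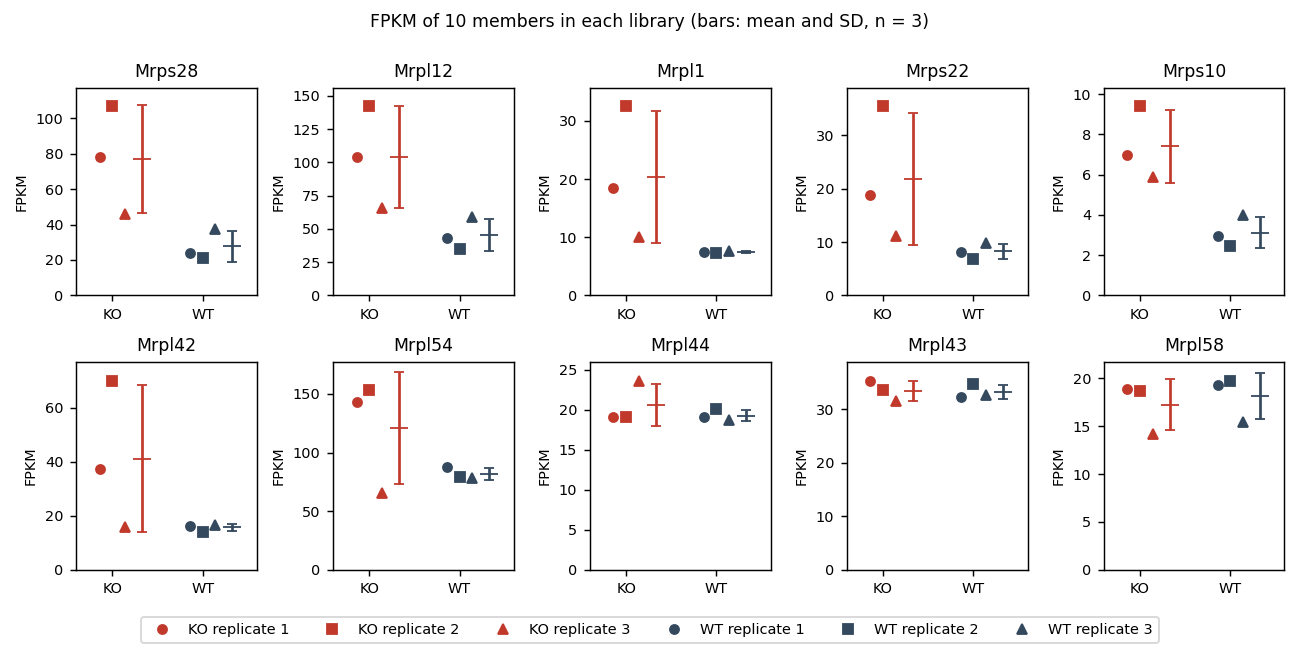
FPKM in each library for 10 members, KO at the left and WT at the right of each panel, with bars for the mean and SD (n = 3). Mrps28, Mrpl12, Mrpl1, Mrps22 and Mrps10 have all KO points above all WT points, Mrpl42 and Mrpl54 have KO replicate 3 at or below WT, and Mrpl44, Mrpl43 and Mrpl58 have similar levels in both groups.

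At the other end, 5 members had a log2 fold change within 0.1 of 0. Mrpl58, a peptidyl-tRNA hydrolase that frees stalled ribosomes and is also built into the large subunit (chr11:115403752-115412674, plus strand), had 18.9, 18.7 and 14.2 FPKM in KO and 19.3, 19.8 and 15.4 FPKM in WT libraries (log2 fold change -0.08, SE 0.186, limma adjusted p = 0.838). Mrps36, named as a ribosomal protein but since assigned to the 2-oxoglutarate dehydrogenase complex (chr13:100735955-100744659, minus strand), had 24.2, 23.6 and 23.6 FPKM in KO and 24.7, 21.2 and 26.7 FPKM in WT libraries (log2 fold change -0.02, SE 0.152, limma adjusted p = 0.957). These were the only members with a value below 0, and their KO and WT libraries overlapped throughout. Mrpl43 had 35.4, 33.5 and 31.5 FPKM in KO and 32.3, 34.7 and 32.7 FPKM in WT libraries. It is a large-subunit protein found only in mitochondria, and 33.4% of its exonic bases are shared with the opposite-strand gene Twnk. Mrpl4, whose bacterial counterpart lines the exit tunnel, had 22.6, 17.4 and 23.7 FPKM in KO and 18.4, 20.3 and 21.2 FPKM in WT libraries. Mrpl44, which carries a ribonuclease III fold, had 19.1, 19.1 and 23.6 FPKM in KO and 19.1, 20.04 and 18.7 FPKM in WT libraries. Their log2 fold changes were 0.01, 0.08 and 0.09, and each was below 0 when the libraries were rescaled to equal totals.

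Upstream sequences are shown for the 3 members of largest and the 2 of smallest log2 fold change that had 150 bases outside any exon and outside their own gene directly before the start, so that both ends of the range can be compared. They come from the RefSeq promoter table (GRCm38.p6, the mm10 assembly), run 5′ to 3′ in the direction of transcription and end at the RefSeq start, except for Mrpl12, where the stretch ends 24 bases before it. Capitals mark the letters CCGGAAG, the core bound by ETS family factors, on either strand. The stretches are chr9:98601680-98601829 (minus strand), chr11:120484463-120484612 (plus strand), chr10:95501950-95502099 (minus strand), chr11:115403602-115403751 (plus strand) and chr13:100744660-100744809 (minus strand).
Mrps22: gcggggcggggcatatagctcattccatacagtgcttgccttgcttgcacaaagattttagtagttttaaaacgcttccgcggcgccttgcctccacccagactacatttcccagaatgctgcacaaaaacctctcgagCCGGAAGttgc
Mrpl12: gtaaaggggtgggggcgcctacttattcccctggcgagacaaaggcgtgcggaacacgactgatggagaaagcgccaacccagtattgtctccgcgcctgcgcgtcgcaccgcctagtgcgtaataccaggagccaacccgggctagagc
Mrpl42: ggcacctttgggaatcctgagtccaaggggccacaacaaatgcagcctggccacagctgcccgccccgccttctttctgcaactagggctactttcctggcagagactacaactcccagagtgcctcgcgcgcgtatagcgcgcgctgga
Mrpl58: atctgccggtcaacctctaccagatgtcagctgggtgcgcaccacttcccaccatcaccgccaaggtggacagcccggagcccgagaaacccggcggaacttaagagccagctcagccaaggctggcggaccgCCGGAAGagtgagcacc
Mrps36: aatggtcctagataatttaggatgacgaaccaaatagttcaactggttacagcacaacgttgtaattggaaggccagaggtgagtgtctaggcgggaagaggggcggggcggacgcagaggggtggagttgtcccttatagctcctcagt
The ETS letters stand in Mrps22, from the upper end of the range, and in Mrpl58, from the lower end.

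Over the 300 bases from 250 before to 50 after the RefSeq start, given for 69 of the 78 members, 4 motifs were searched on both strands. The ETS letters CCGGAAG were in 25 member promoters (36.2%), against 20.6% of the promoters of other tested genes and 9.12% of all promoters. AAGATGG, the core bound by YY1, a factor that regulates many mitochondrial genes, was in 13 (18.8%), against 7.85% of other tested genes and 6.48% of all. GCATGCG, the central part of the site of NRF1, the nuclear respiratory factor, was in 8 (11.6%), against 7.18% of other tested genes and 3.64% of all. CACGTG, the E-box bound by MYC and other factors, was in 5 (7.25%), against 10.7% of other tested genes and 7.24% of all. The ETS and YY1 letters can share the bases AAG, and no motif shares were tested. Members with and without the ETS letters had median log2 fold changes of 0.49 and 0.55, those with and without the YY1 letters 0.52 and 0.53, and those with and without the NRF1 letters 0.52 and 0.52. The 5 members with the E-box letters had a median of 0.67 and the 63 without them one of 0.51. These medians were not tested against each other. A match is a run of letters and not a measured binding site.

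The large and the small subunit had close medians. The 50 large-subunit members had a median log2 fold change of 0.53, with 49 above 0 and 22 at an unadjusted p under 0.05 (44%, against 11.5% of all genes tested, higher in KO). The 26 small-subunit members had a median of 0.54, with 26 above 0 and 9 at an unadjusted p under 0.05 (34.6%). Without KO replicate 3 the medians were 0.75 for the large and 0.67 for the small subunit. With that library left out, 26 and 10 members were called (52% and 38.5%, against 8.12% of all genes tested called higher). The 46 members named for a bacterial counterpart had a median of 0.57 and the 30 classed as mitochondria-specific, Mrps18a and Mrps18b among them, one of 0.50. None of these differences between classes was tested.

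**Figure D3:**
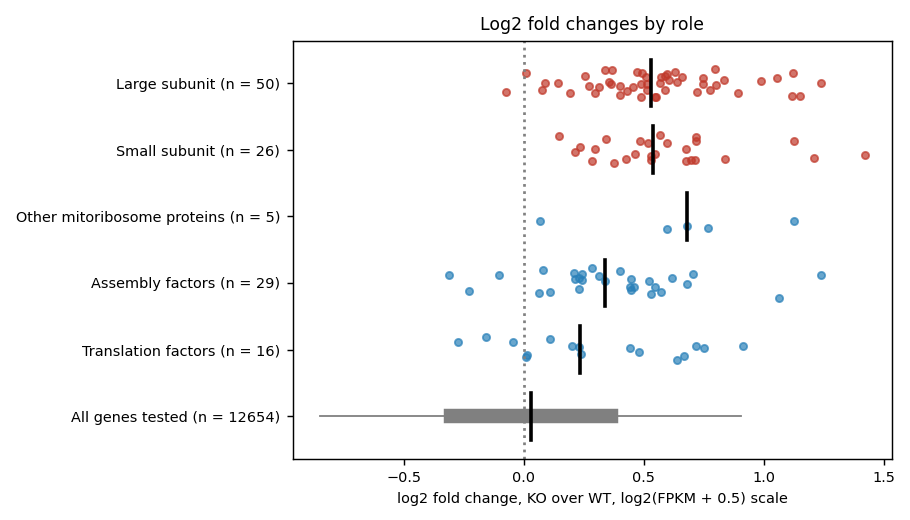
Points show the log2 fold change, KO over WT, of each tested gene by role, with black bars at the medians, and the grey box and line for all 12654 genes tested span the middle 50% and the middle 90%. Both subunits centre near 0.53, the assembly factors at 0.34 and the translation factors at 0.23, against 0.03 for all genes.

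Members with defined places in the ribosome spanned the range. Mrpl10 and Mrpl11 form, with Mrpl12, the base of the stalk that recruits translation factors. Mrpl10 had 28.8, 34.0 and 28.9 FPKM in KO and 27.4, 26.1 and 29.2 FPKM in WT libraries, a log2 fold change of 0.14 (14.1% of its exonic bases are shared with Gm11574). Mrpl11 had 27.4, 34.1 and 14.6 FPKM in KO and 13.97, 15.6 and 17.5 FPKM in WT libraries, a log2 fold change of 0.60. Neither gene separated the groups, unlike Mrpl12. Mrps12, at the decoding centre, had 33.2, 30.8 and 27.4 FPKM in KO and 21.7, 24.4 and 25.5 FPKM in WT libraries, all KO above all WT, with a log2 fold change of 0.34 (limma adjusted p = 0.252). Mrpl45, which ties the tunnel exit to the inner membrane, had 34.6, 40.7 and 29.0 FPKM in KO and 27.9, 27.5 and 25.2 FPKM in WT libraries, also without overlap (log2 fold change 0.35, limma adjusted p = 0.283). These differences were small but lay in all 3 KO libraries. Mrpl32, which the m-AAA protease of the inner membrane must process before the ribosome can be built, had 17.0, 23.9 and 8.53 FPKM in KO and 11.3, 9.79 and 8.85 FPKM in WT libraries. KO replicate 3 was the lowest of its 6 libraries, and the log2 fold change was 0.59 with it and 0.99 without it. Mrps30, a large-subunit protein in spite of its name, had 6.59, 10.2 and 4.58 FPKM in KO and 4.87, 5.15 and 5.02 FPKM in WT libraries, again lowest in KO replicate 3.

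The 3 Mrps18 paralogues had their highest and lowest libraries in different places. Mrps18c had 59.98, 99.6 and 24.6 FPKM in KO and 33.1, 29.5 and 36.5 FPKM in WT libraries, so that KO replicates 1 and 2 lay above and KO replicate 3 below all WT libraries. Mrps18b had 7.42, 4.78 and 8.20 FPKM in KO and 3.68, 3.58 and 6.60 FPKM in WT libraries, and here KO replicate 2 was the lowest KO library. Mrps18a had 5.49, 5.35 and 8.45 FPKM in KO and 3.74, 5.81 and 6.39 FPKM in WT libraries, with the highest value in KO replicate 3. The log2 fold changes were 0.67 (SE 0.467) for Mrps18c, 0.53 (SE 0.292) for Mrps18b and 0.26 (SE 0.260) for Mrps18a, which lie within their errors of each other, and the differences between them were not tested. Of their exonic bases, Mrps18c shares 23.2% with Gm43511 on the same strand and Mrps18b 30.5% with Gm16279, so the values of both are uncertain.

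By level, the members kept their order between the groups: the Spearman correlation of mean KO and mean WT FPKM over the 77 members was 0.955, a description over genes that share the same libraries. Mean FPKM spanned 23.5-fold, and the median member had 25.7 FPKM in KO and 18.2 FPKM in WT libraries. Mrpl54, found only in mitochondrial ribosomes (chr10:81264713-81266934, minus strand), was the most abundant, with 143, 154 and 65.9 FPKM in KO and 87.5, 79.5 and 78.2 FPKM in WT libraries. KO replicate 3 was the lowest library and KO replicates 1 and 2 were the highest (log2 fold change 0.47, SE 0.332, limma adjusted p = 0.440, and 0.86 with adjusted p = 0.0344 without KO replicate 3). Mrpl41 had 106, 189 and 49.9 FPKM in KO and 63.3, 54.3 and 73.3 FPKM in WT libraries, and Mrpl27, which lies beside the peptidyl transferase centre in bacteria, 107, 159 and 41.1 FPKM in KO and 77.3, 55.5 and 56.4 FPKM in WT libraries. Both had the pattern of Mrpl54. Mrpl34, also highly abundant, had 94.1, 110 and 75.4 FPKM in KO and 69.3, 75.7 and 77.6 FPKM in WT libraries, a log2 fold change of 0.31. The lowest level was that of Mrps25, with 4.21, 5.36 and 4.43 FPKM in KO and 3.44, 3.31 and 5.10 FPKM in WT libraries, of whose exonic bases 69.8% are shared with Nr2c2, and Mrps10 came next. The rebuilt reads of a tested member in one library ran from 115 for Mrps18b to 3384. Mrpl53 was listed at 0 in all 6 libraries and was not tested; 88.0% of its exonic bases are shared on the same strand with Gm42688.

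The SD was larger in KO than in WT in 59 members (76.6%), against 67.7% of all genes tested. The SD of log2(FPKM + 0.5) had a median of 0.33 in KO and 0.17 in WT over the members, against 0.33 in KO and 0.21 in WT over all genes tested. KO replicate 2 had the highest of the 3 KO values in 51 members (66.2%, against 38.8% of all genes tested), where it was also the highest of all 6 libraries (against 28.3% of all genes tested), and KO replicate 3 in 12 (15.6%, against 42% of all genes tested), among them Mrps34, Mrps7, Mrps2 and Mrpl44. In 29 members KO replicates 1 and 2 lay above all WT libraries and KO replicate 3 did not (37.7%, against 13.6% of all genes tested). In 14 of these, KO replicate 3 was also below all WT libraries (18.2%, against 6.77%). Counted alone, KO replicate 3 was below all WT libraries in 16 members (20.8%, against 34.1% of all genes tested). The difference between KO replicate 2 and KO replicate 3 had a median of 0.57 on the log2 scale over the members, against -0.01 over all genes tested. It was largest in Mrps33, a small-subunit protein with 58.3, 120 and 23.8 FPKM in KO and 35.3, 31.0 and 34.4 FPKM in WT libraries, where it reached 2.31. As a description, its Spearman correlation with gene length was -0.286 across all genes tested and 0.0294 across the members.

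**Figure D4:**
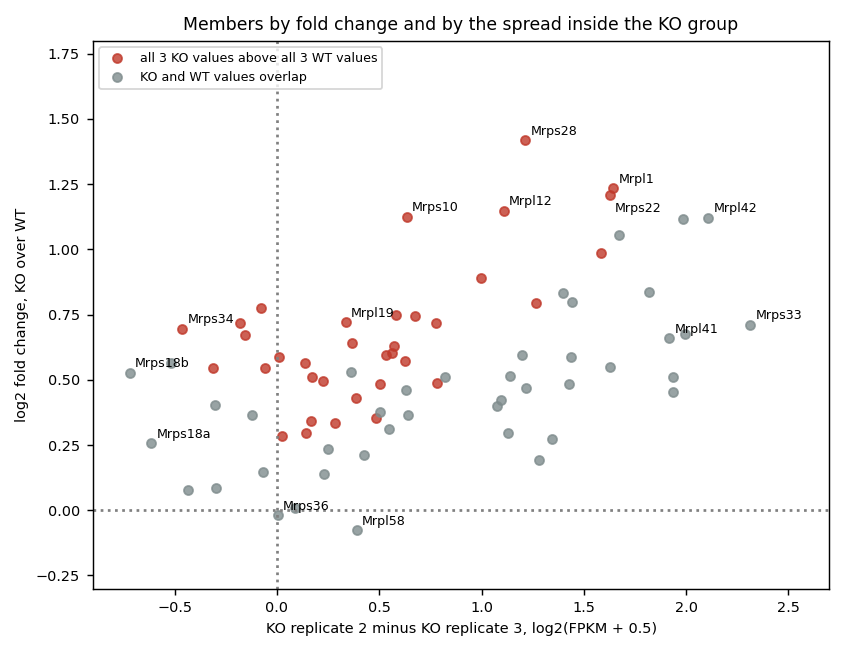
Each point is a tested member, placed by the difference between KO replicate 2 and KO replicate 3 in log2(FPKM + 0.5) and by its log2 fold change, KO over WT; red points have all KO values above all WT values. Mrps33 and Mrpl42, at the far right, have groups that overlap, Mrpl1 and Mrps22 separate the groups with a large difference between those KO libraries, and Mrps10 and Mrps34 do so with a smaller or opposite one.

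Mrpl19 and Mrps34, chosen after their values were seen, had differences held by all 3 KO libraries. Mrpl19, whose bacterial counterpart sits at the subunit interface, had 11.7, 12.8 and 10.004 FPKM in KO and 6.98, 6.31 and 6.95 FPKM in WT libraries (log2 fold change 0.72, SE 0.155, limma adjusted p = 0.0996), with 36.0% of its exonic bases shared with Gcfc2. Mrps34, a small-subunit protein found only in mitochondria, had 15.4, 14.5 and 20.2 FPKM in KO and 8.88, 9.18 and 12.3 FPKM in WT libraries, a log2 fold change of 0.70. Of its exonic bases, 63.4% are shared with Mapk8ip3 on the other strand and 37.0% with Nme3 on the same strand, so its values are uncertain. In Mrpl19 the KO libraries differed little, and in Mrps34 KO replicate 3 was the highest of all.

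The scale of the deposited values bears on the size of these differences. When each library was rescaled to the same FPKM total, the median of all genes tested moved to -0.20 and that of the members to 0.28. The members then stood 67 of 77 above 0 (against 34.3% of all genes tested), with 12 at an unadjusted p under 0.05 (15.6%, against 3.83%) and 15 with all KO values above all WT values (19.5%, against 5.7%). With the trend on gene length removed from each library, the members had a median of 0.45, against 0.01 over all genes tested. Of them, 24 were higher in KO at an unadjusted p under 0.05 (against 10.9%).

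Other proteins of the same ribosome, which carry other names, were listed by function with earlier results of these data known. Of 5 tested, 5 had a log2 fold change above 0, with a median of 0.68. None was called, and 2 had an unadjusted p under 0.05 (40%, against 11.5% of all genes tested, higher in KO). Chchd1, a small-subunit protein, had 154, 311 and 72.9 FPKM in KO and 66.3, 56.1 and 89.6 FPKM in WT libraries (log2 fold change 1.13). Dap3, a GTP-binding small-subunit protein also linked to cell death, had 18.8, 20.8 and 13.8 FPKM in KO and 16.9, 15.5 and 17.8 FPKM in WT libraries (log2 fold change 0.07). In both, KO replicate 3 was level with or below WT libraries, and without it 4 of the 5 were called (against 13.7% of all genes tested).

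Of 29 assembly factors of the mitoribosome tested, 26 had a value above 0 and 3 below, 0 were called, 8 had an unadjusted p under 0.05 with higher values in KO (27.6%) and 0 with lower ones, with a median of 0.34. The shares over all genes tested were 11.5% higher and 10.2% lower. Fastkd2, an RNA-binding protein needed for the large ribosomal RNA, had 12.3, 22.5 and 6.0004 FPKM in KO and 4.96, 4.21 and 5.17 FPKM in WT libraries (log2 fold change 1.24, limma adjusted p = 0.167), all KO above all WT. Mettl17, an assembly factor of the small subunit, had 4.98, 4.34 and 4.69 FPKM in KO and 4.94, 6.71 and 6.23 FPKM in WT libraries (log2 fold change -0.31). Of 16 translation factors tested, 13 had a value above 0 and 3 below, 0 were called, 4 had an unadjusted p under 0.05 with higher values in KO (25%) and 0 with lower ones, with a median of 0.23. Mrrf, which recycles ribosomes after termination, had 6.42, 8.05 and 5.38 FPKM in KO and 3.28, 3.60 and 2.88 FPKM in WT libraries (log2 fold change 0.91, limma adjusted p = 0.0970). Oxa1l, the insertase that takes new chains from the tunnel into the inner membrane, had 12.4, 12.6 and 14.1 FPKM in KO and 15.3, 16.5 and 15.8 FPKM in WT libraries (log2 fold change -0.27), all KO below all WT. Rescaled to equal totals, the medians were 0.07 for assembly factors and -0.02 for translation factors. Without KO replicate 3, 6 assembly factors (20.7%) and 3 translation factors (18.8%) were called, against 13.7% of all genes tested.

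The ribosomal proteins of the cytosol overlapped between the groups. Their mean deviation of log2(FPKM + 0.5) from each gene's mean was 0.15, 0.65 and -0.52 in KO replicates 1 to 3 and 0.06, -0.09 and -0.26 in WT replicates 1 to 3. The same mean over the mitochondrial ribosomal proteins was 0.36, 0.59 and -0.11 in KO and -0.30, -0.37 and -0.17 in WT libraries, which did not overlap. Of 81 cytosolic ribosomal protein genes tested, 2 were higher in KO at an unadjusted p under 0.05 (2.47%, against 11.5% of all genes tested). All KO values lay above all WT values in 1 gene (1.23%, against 14.5%) and below them in 4 genes (against 13.3% of all genes tested). The 13 mitochondrially encoded messages, the templates of the mitoribosome, had deviations of 0.19, 1.37 and -0.93 in KO and -0.13, -0.21 and -0.30 in WT libraries. Among these messages the largest log2 fold change was 4.12, against a median of 0.17, with 9 above 0 and 4 below. The mean deviations therefore rest in part on 1 gene. The spread of the messages between KO replicates 2 and 3 was wider than that of the ribosomal proteins, and the part of that spread in the members' values was not tested.

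**Figure D5:**
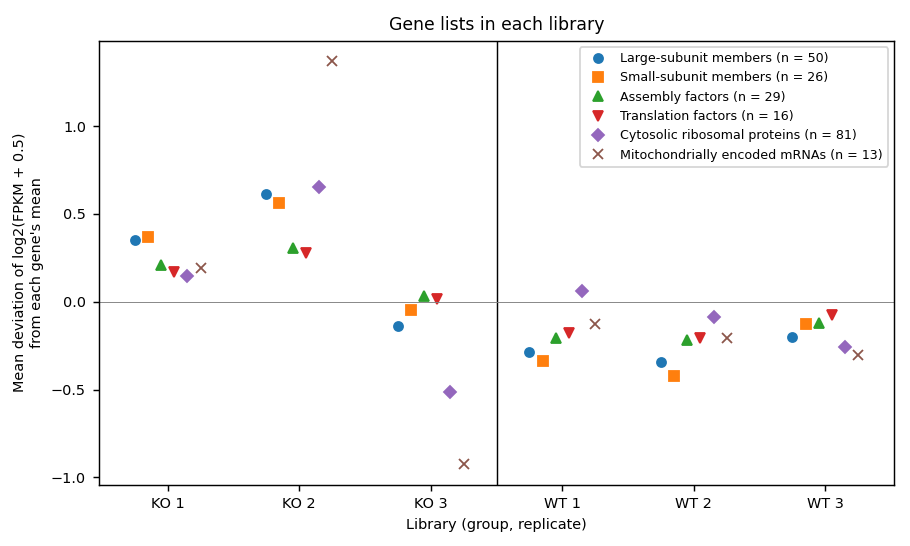
Each symbol is the mean over a gene list of log2(FPKM + 0.5) less each gene's mean over the 6 libraries, with KO libraries at the left and WT libraries at the right. Large and small subunits move together, highest in KO replicate 2 and below 0 in KO replicate 3 and in all WT libraries, with KO replicate 3 above the WT libraries. Cytosolic ribosomal proteins and mitochondrial messages are also highest in KO replicate 2 but are lowest in KO replicate 3.

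By position, the members lay on 17 chromosomes, and 18 of 77 (23.4%) began within 1000 bases of another protein-coding gene that runs the opposite way, with the GENCODE starts facing apart and not overlapping, against 11.6% of the 10185 other tested coding genes. Of their 17 tested partners, 7 had a log2 fold change above 0, with a median of -0.01. The members of these pairs had a median of 0.59, and the member was above its partner in 16 of 17 pairs. Mrpl54 starts 26 bases from Apba3 (log2 fold changes 0.47 and -0.13) and Mrpl49 starts 59 bases from Fau (0.43 and -0.27), while Mrpl32 and the proteasome gene Psma2, 75 bases apart, had 0.59 and 0.55. These differences were not tested. Mrpl46 and Mrps11, members of opposite subunits, start 42 bases apart on opposite strands of chromosome 7 in RefSeq, but overlap at their starts in GENCODE and so are not among the 18. They had log2 fold changes of 0.80 and 0.46.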

How the data were processed

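RNA sequencing of 3 KO and 3 WT libraries of activated CD8 T cells was analysed from 1 deposited table with 1 FPKM value per gene and library. The authors scaled these values to gene length and to a total for each library. The library kit was a stranded one for mRNA, per the labels' protocols. The submitters' processing notes list featureCounts 1.5.0-p3, HISAT2 2.0.5, DESeq2, Trim Galore and the genome build mm10 without saying what each did. Not given in the sources used here are the annotation release, the strand setting and how reads with several matches were treated, so genes that overlap others are uncertain. The deposited gene length, a column of another kind, served to rebuild reads: FPKM times length fell on whole steps, within 0.05, for at least 99.99% of values in each library. The library total implied by the step ran from 1.31e+07 in KO replicate 2 to 1.80e+07 in KO replicate 3. Rebuilt reads numbered 16819913 and 16462539 in these libraries, so the deposited values were not scaled to the count of these reads alone.

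Values were tested as log2(FPKM + 0.5) in the 12654 genes with a mean of at least 0.5 FPKM, with limma 3.58.1 in R 4.3.3 (trend, genotype as the only term, 2-sided), and called at a Benjamini-Hochberg adjusted p under 0.05 over all genes. On this scale the change of weakly expressed genes is understated. In simulated data on 12654 genes, the comparison of 3 against 3 recovered 37 of 100 genes changed 2-fold and 91 of 100 changed 4-fold, with 8 false calls. The simulation gave both groups the same SD, drew noise independently for each gene and changed only genes above a floor of reads. In the data the median SD over all genes tested was 0.33 in KO and 0.21 in WT, and KO replicate 3 stood apart. The simulated recovery may therefore not hold for these libraries. Positions and overlaps are from GENCODE M21 (mm10), in which 54409 identifiers matched and 123 did not. The members, lists and the rule for named genes were chosen with earlier results of these data known. Named by rule were the 6 largest and 6 smallest log2 fold changes, the 4 highest and 2 lowest levels, the 2 largest and 2 smallest differences between KO replicates 2 and 3, members with a fixed role, and the extremes of each list. Others were chosen after their values were seen. Alternatives covered pseudocount, filter, scaling, variance model, sample weights, replicate block, length trend, limma-voom on rebuilt reads and each library left out. Tables and plots used Python 3.11.15, pandas 2.3.3 and matplotlib 3.10.9.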

Additional observations from a re-analysis of the deposited data

How the results depend on the processing

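The median log2 fold change of the members stayed above 0 under all 18 alternatives, between 0.28 with equal FPKM totals and 0.70 with sample weights (arrayWeights, whose fit gave a convergence warning). Several of these could not move it. The variance model and the replicate block leave the log2 fold changes as they are, and the filters dropped no tested member, so the median stayed at 0.53 there. Median-of-ratios scaling had little to change, with factors of 0.998 to 1.016 in the deposited values. Calls over all genes numbered 5, against 3 with a pseudocount of 1, 3 with no filter, 14 without the variance trend, 7200 with sample weights, 1 with limma-voom and 2 to 1733 with a library left out, the highest without KO replicate 3. Same-numbered KO and WT libraries deviated with correlations of 0.132, 0.0665 and 0.331, so the numbers were not taken to pair the libraries, and a replicate block gave 12 calls over all genes and 0 among the members. With sample weights, 67 members were called, against 56.9% of all genes tested, and 68 were higher in KO at an unadjusted p under 0.05. Called in either direction were 4 of 5 other mitoribosome proteins, 22 of 29 assembly factors and 11 of 16 translation factors. Counting only genes higher in KO at an unadjusted p under 0.05, these lists had 5, 21 and 9. The share of all genes at that p was not counted with sample weights. Equal totals gave medians of 0.072 and -0.019 for assembly and translation factors and -0.20 for all genes. Groups then did not overlap in 16 members (15 of them higher in KO, against 5.7% of all genes tested). At an unadjusted p under 0.05 stood 12 members (against 3.83% of all genes tested, higher in KO). The other proteins, assembly factors and translation factors had 1, 2 and 1 higher in KO at that p. With the length trend removed, 5 assembly factors were higher in KO at that p, against 10.9% of all genes tested. With a library left out, members called numbered 0 to 36 and those with no overlap in either direction 37 to 64. Members higher in KO at an unadjusted p under 0.05 numbered 9 to 58. The ranges were 0 to 4 called and 2 to 4 higher at that p for the other proteins, 0 to 6 and 1 to 13 for assembly factors, and 0 to 3 and 1 to 6 for translation factors. Each range peaked without KO replicate 3. There 13.7% of all genes tested were called and 28.2% lay higher in KO without overlap, and their share at an unadjusted p under 0.05 was not counted. The 9 members were found without WT replicate 2, against 5.65% of all genes tested. Fewer libraries by construction loosen the overlap count, and the cause of the other changes was not tested.

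Over the 18 alternatives, 12 of the 77 members changed sign at least once, 7 of them among the genes named by rule. The largest estimate to do so was that of Mrpl33, 0.45 with all libraries and -0.013 without KO replicate 2, where Mrpl9 (0.27) moved to -0.039 and Mrpl30 (0.19) to -0.069. With equal totals Mrps35 moved to -0.038, Mrpl30 to -0.078 and Mrps23 to -0.12, and Mrps23 to -0.0016 with the length trend removed. Among genes named by rule, with equal totals the log2 fold change was -0.26 for Mrpl43, -0.19 for Mrpl4, -0.18 for Mrpl44, -0.13 for Mrpl10, -0.010 for Mrps25 and -0.20 for Dap3. With the length trend removed it was -0.15 for Mrpl43, -0.014 for Mrpl4 and -0.056 for Mrpl44. Sample weights gave 0.058 for Mrps36 and -0.029 for Mrpl44. Mrpl43 had -0.0027 with limma-voom and -0.0020 with median-of-ratios scaling. With a library left out, the range was -0.19 to 0.056 for Mrpl58, -0.11 to 0.054 for Mrps36, -0.031 to 0.051 for Mrpl43, -0.0076 to 0.21 for Mrpl4, -0.014 to 0.14 for Mrpl44 and -0.054 to 0.23 for Dap3.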

Other observations

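The 2 ribosomal RNAs around which these proteins assemble are transcribed from the mitochondrial genome and were also in the table, although a kit that selects polyadenylated RNA captures them unevenly. mt-Rnr1, the RNA of the small subunit, had 1130, 1826 and 1092 FPKM in KO replicates 1 to 3, against 783, 701 and 437 FPKM in WT replicates 1 to 3. All KO values were above all WT values (log2 fold change 1.08, limma adjusted p = 0.151). mt-Rnr2, the RNA of the large subunit, had 1455, 3339 and 954 FPKM in KO and 1112, 991 and 1014 FPKM in WT libraries, and KO replicate 3 was the lowest of the 6 (log2 fold change 0.68, limma adjusted p = 0.422). Mrm3, an enzyme that methylates the large ribosomal RNA, had 8.83, 10.5 and 8.05 FPKM in KO and 3.79, 3.74 and 4.83 FPKM in WT libraries (log2 fold change 1.06, limma adjusted p = 0.0884), and was picked after its value was seen. Tufm, the elongation factor that brings aminoacyl-tRNA to the ribosome, had 31.1, 25.1 and 39.3 FPKM in KO and 24.5, 28.3 and 43.1 FPKM in WT libraries (log2 fold change 0.01), with the groups overlapping.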
